A study of Homo sapiens with 6 samples.

Results

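The genes described here encode the heat shock proteins, the J proteins that work with them and the subunits of the TRiC chaperonin, together with the BAG co-chaperones and the heat shock factors HSF1 and HSF2. They were chosen by gene symbol (the HSP, DNAJ, CCT, BAG and HSF families), and 88 of the 61155 gene symbols in the deposited table met the rule. RNA was sequenced from MDA-MB-231 cells, a human triple-negative breast cancer cell line, in 3 libraries with knockdown of VASP, a protein that binds actin filament ends and promotes their growth, and in 3 control libraries. The sample titles name the groups shVASP and plko, which stand for a short hairpin RNA and an empty hairpin vector, whereas the sample characteristics and the protocol describe VASP siRNA and negative control siRNA delivered by transient transfection, with cells collected 48 h later, so the reagent cannot be settled from the labels. Nothing in the labels says that the libraries of a group came from separate cultures, and p-values therefore measure only the spread between libraries, which may be technical. The 3 control columns of the table all carry names that extend the title of 1 control sample by a further number, whereas the labels list 3 control samples, so it cannot be told whether these columns are the 3 samples or 3 preparations of 1 of them. If they are the second, the control group is 1 sample and the p-values below do not hold for the comparison of conditions. Pairs of knockdown libraries had chi-square statistics of 5.11 to 8.67 times their degrees of freedom, and pairs of control columns of 5.33 to 7.86 times, where sampling noise alone gives about 1.

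Heat shock proteins bind unfolded stretches of other proteins and help them fold, refold, assemble or move to the proteasome. HSP70 proteins bind and release clients in an ATP cycle. J proteins deliver the clients and trigger ATP hydrolysis, and HSP110 and most BAG proteins exchange the nucleotide. HSP90 acts later on kinases and receptors, and TRiC encloses newly made actin and tubulin, among other clients, in a chamber. Heat shock factors drive many of these genes through DNA elements built of inverted GAA units, and chaperones of the endoplasmic reticulum respond instead to a separate stress element.

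The promoters below are shown because they hold the complete form of one of these elements, and the transcripts of the genes can be read against them. They run from 250 bases before to 50 bases after the gene start in RefSeq on GRCh38.p14, and they were picked for display after the matches were known. Capitals in the first 4 mark 3 adjoining inverted heat shock units, searched on both strands as GAA, TTC and GAA with any 2 bases between neighbouring units, whose reverse complement is TTC, GAA and TTC. Capitals in the last pair mark the endoplasmic reticulum stress element, searched on both strands as CCAAT and CCACG with any 9 bases between them, whose reverse complement is CGTGG and ATTGG at the same spacing.
HSPA8, chr11:123062087-123062386, minus strand: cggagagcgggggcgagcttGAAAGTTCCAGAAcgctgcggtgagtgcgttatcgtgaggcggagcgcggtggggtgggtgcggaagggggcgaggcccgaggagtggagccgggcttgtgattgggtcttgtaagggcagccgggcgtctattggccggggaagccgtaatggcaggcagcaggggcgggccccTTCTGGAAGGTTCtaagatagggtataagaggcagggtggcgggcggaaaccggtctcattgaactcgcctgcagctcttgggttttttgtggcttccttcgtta
DNAJA1, chr9:33025023-33025322, plus strand: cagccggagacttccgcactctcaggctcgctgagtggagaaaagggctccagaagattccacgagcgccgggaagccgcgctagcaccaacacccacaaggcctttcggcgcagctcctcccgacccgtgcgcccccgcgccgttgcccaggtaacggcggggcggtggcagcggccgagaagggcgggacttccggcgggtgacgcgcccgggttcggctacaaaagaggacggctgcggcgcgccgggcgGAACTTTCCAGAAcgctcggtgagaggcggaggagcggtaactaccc
DNAJB6, chr7:157336754-157337053, plus strand: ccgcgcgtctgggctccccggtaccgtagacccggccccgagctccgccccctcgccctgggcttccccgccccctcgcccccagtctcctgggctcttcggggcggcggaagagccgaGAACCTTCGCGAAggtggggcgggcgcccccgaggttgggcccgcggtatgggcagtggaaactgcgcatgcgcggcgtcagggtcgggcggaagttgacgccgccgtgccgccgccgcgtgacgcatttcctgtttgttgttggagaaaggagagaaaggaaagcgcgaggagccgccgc
HSPA6, chr1:161524290-161524589, plus strand: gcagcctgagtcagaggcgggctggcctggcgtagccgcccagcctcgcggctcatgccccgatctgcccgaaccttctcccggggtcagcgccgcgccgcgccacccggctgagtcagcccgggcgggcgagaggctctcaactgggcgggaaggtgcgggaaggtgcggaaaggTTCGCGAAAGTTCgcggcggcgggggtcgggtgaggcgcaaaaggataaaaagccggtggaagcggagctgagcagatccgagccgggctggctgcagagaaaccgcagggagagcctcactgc
HSPA5, chr9:125241294-125241593, minus strand: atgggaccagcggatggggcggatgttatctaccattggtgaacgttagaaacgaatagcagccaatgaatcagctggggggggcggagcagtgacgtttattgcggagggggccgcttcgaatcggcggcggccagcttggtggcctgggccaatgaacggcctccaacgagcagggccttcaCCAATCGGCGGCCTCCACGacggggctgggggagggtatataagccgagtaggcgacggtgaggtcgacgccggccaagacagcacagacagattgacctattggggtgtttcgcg
HSP90B1, chr12:103930160-103930459, plus strand: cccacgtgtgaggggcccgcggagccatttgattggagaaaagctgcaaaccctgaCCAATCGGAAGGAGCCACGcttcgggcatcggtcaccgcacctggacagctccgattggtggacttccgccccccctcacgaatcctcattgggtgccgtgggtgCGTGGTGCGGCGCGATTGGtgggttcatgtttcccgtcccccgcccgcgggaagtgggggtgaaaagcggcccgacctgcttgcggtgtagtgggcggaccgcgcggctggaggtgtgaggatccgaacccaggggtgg

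Of the 88 genes, 77 had a promoter of this kind in the reference, and 4 of them (5.19%) held the 3-unit heat shock word, against 133 of all 27305 promoters (0.487%). HSPA8 held it at 2 places, from -230 to -218 and from -55 to -43 relative to the start, DNAJB6 from -131 to -119, HSPA6 from -74 to -62 and DNAJA1 from 4 to 16. The looser word with 2 inverted units, GAANNTTC or TTCNNGAA, which every 3-unit match contains, was found in 17 of the 77 promoters (22.1%) and in 13.7% of all promoters. The stress element was found in HSPA5, from -66 to -48, and in HSP90B1, from -194 to -176 and from -89 to -71, and in 22 of all 27305 promoters (0.0806%). A match describes the letters of the window and is not evidence of binding in these cells.

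VASP, the targeted gene, checked the labels. It had 396, 379 and 360 counts in the knockdown libraries, against 4544, 5036 and 4708 counts in the control libraries, which is 12.7 ± 0.355 CPM (counts scaled to a common library size) in knockdown and 164 ± 9.04 CPM in control (SD, n = 3 each). The log2 fold change was -3.69 (SE 0.06, edgeR quasi-likelihood test, adjusted p = 8.3e-24), a 12.9-fold lower level in knockdown. The libraries held between 28856610 and 30055503 counts, and a floor of 3 counts corresponds to between 0.0978 and 0.104 CPM, which covers counting error only. The first principal component carried 51.6% of the variance, with knockdown libraries at one end and control libraries at the other, and 12 to 14.6% of counts were mitochondrial in knockdown libraries, against 13.7 to 15.1% in control libraries. Of the markers of the line, VIM averaged 1700 CPM in knockdown and 1660 CPM in control, CD44 579 CPM in knockdown and 558 CPM in control, and EGFR, which rose, 715 CPM in knockdown and 607 CPM in control (log2 fold change 0.24, edgeR adjusted p = 0.0012). Of these low markers, ESR1 averaged 0.58 CPM in knockdown and 0.631 CPM in control, PGR 0.0113 CPM in knockdown and 0.0458 CPM in control, and CDH1 0.056 CPM in knockdown and 0.046 CPM in control. Among 15 markers of leukocytes, endothelium, fibroblasts and adipocytes, 3 could be tested: the endothelial marker PECAM1 fell, with 2.05 CPM in knockdown and 2.82 CPM in control (edgeR adjusted p = 0.026), and COL1A1 and PLIN1 did not pass. The other 12 averaged at most 0.156 CPM in either group, and DCN, LUM and ADIPOQ were at 0.

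Of the 88 genes, 71 had enough counts to be tested, and 32 of these (45.1%) rose in knockdown cells, 4 (5.63%) fell and 35 did not pass. Over all 16633 tested genes the same edgeR test called 18.9% higher and 18.3% lower in knockdown, or 37.2% in either direction. An adjusted p under 0.05, with Benjamini-Hochberg adjustment over all tested genes, counts as passing throughout. The rises were small: the median fold of the 32 higher genes was 1.19, against 1.38 for the 4 that fell, and only 3 of the 36 called genes moved by at least 0.5 on the log2 scale. The median log2 fold change was 0.15 over the 71 genes and -0.008 over all tested genes. In 34 of the 71 every knockdown library lay above every control library, which held for 24.1% of all tested genes, and in 9 every knockdown library lay below, which held for 23.5% of all. Summed over all 88 genes, the level was 11800, 12200 and 12200 CPM in the knockdown libraries, against 11200, 10900 and 11700 CPM in the control libraries.

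**Figure D1:**
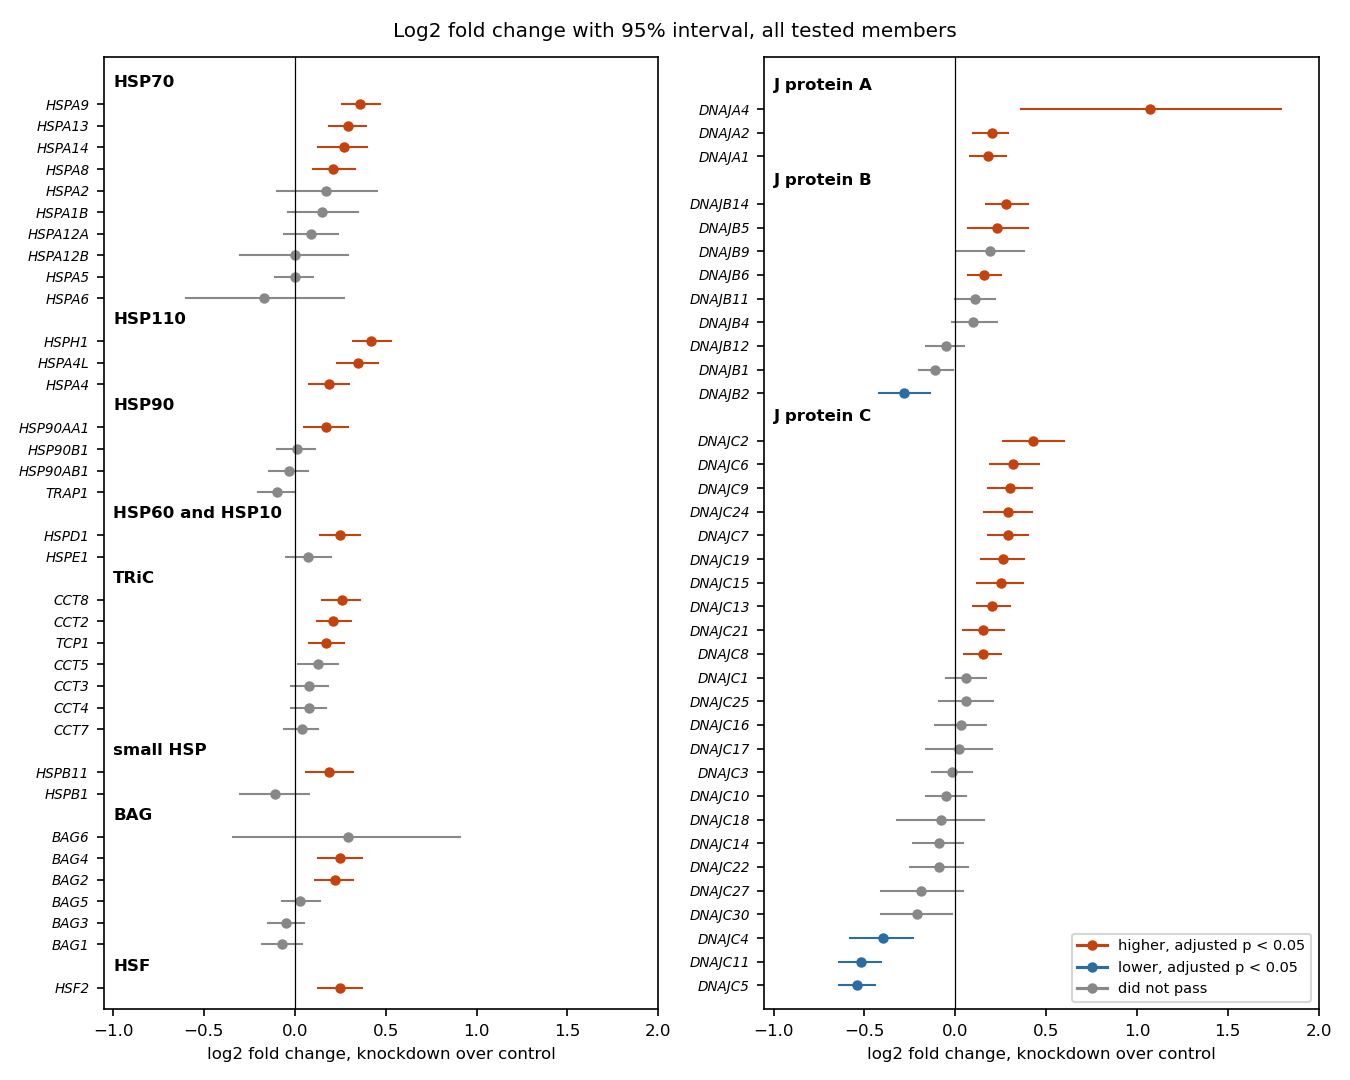
Log2 fold change of each tested gene, knockdown over control, with its 95% interval, grouped by family. The 32 genes that passed as higher are orange, the 4 that passed as lower are blue and the 35 that did not pass are grey; DNAJA4, with few counts, has the widest interval among the genes called.

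GC content moved with these calls. In all tested genes, the log2 fold change had a median of 0.18 in the decile of genes with the lowest GC content of their transcripts (up to 39.6%) and of -0.24 in the decile with the highest (from 61.3%). The median GC content was 42.5% for the 32 higher genes, 58.5% for the 4 lower genes and 48.8% for those that did not pass, and 29 of the 32 higher genes lay below the median of all tested genes, 48.6%. Among all 71 tested chaperone genes, 46 lay below it. When GC content and length were corrected for within each library, 19 (26.8%) were higher and 7 (9.86%) lower, against 13.2% higher and 14.4% lower over all genes in that fit, and the median log2 fold change of the 71 was 0.08. With the correction, 18 genes were higher and 4 lower in both fits, HSPA1B was higher only with it, and DNAJC3, DNAJC10 and DNAJC27 were lower only with it. A bulk library also cannot tell a change in the number of cells of a kind from a change of RNA per cell.

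**Figure D2:**
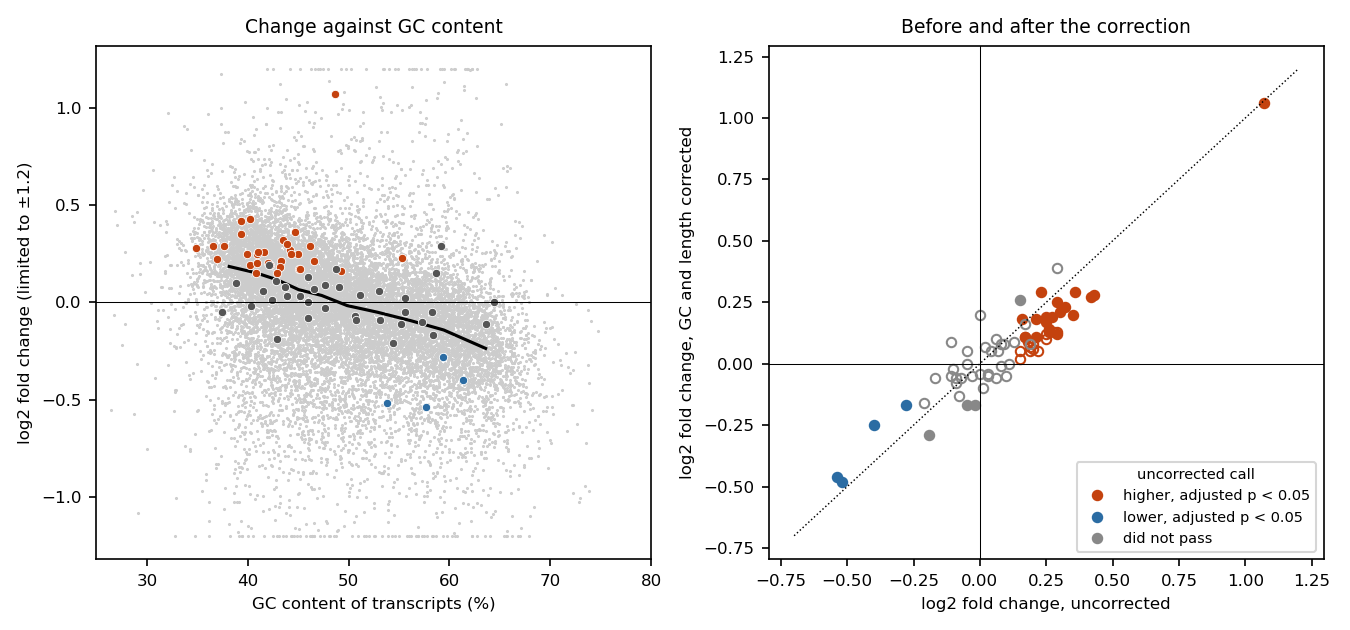
Left, log2 fold change (knockdown over control, limited to ±1.2) against the GC content of transcripts in percent for all tested genes (light grey) and for the chaperone genes (orange higher, blue lower, dark grey not passing), with a line through the medians of GC deciles, which falls between 0.18 and -0.24. Right, log2 fold change of the 71 chaperone genes without and with the correction; filled points passed in the corrected fit, and the dotted line marks equal values.

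HSF2, a heat shock factor active in development and in mild proteotoxic stress, rose. It had 39.6, 38.3 and 42.4 CPM in knockdown and 32.9, 33.3 and 34.9 CPM in control, so that the groups did not overlap. Its log2 fold change was 0.25 (edgeR adjusted p = 0.0017), and 0.12 with the GC and length correction, where it no longer passed (edgeR adjusted p = 0.095). HSF1, the main factor of the heat shock response, was counted at 0 in every library. The annotation used for counting also carries HSF1 on an alternate sequence besides the chromosome, and reads that align to several places were not counted, so this 0 says nothing about its level.

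In the HSP70 and HSP110 families, 7 of 13 tested genes (53.8%) rose and none fell, against 18.9% and 18.3% of all tested genes. With the GC and length correction the count was again 7 and none, with HSPA1B in place of HSPA4. The counts of HSPA1B say little about its level, as described below, so the equal count rests in part on that gene. Over all genes 13.2% were higher and 14.4% lower in that fit. No test of the list itself was made. HSPA8, the constitutive cytosolic HSP70, had 1720, 1830 and 1810 CPM in knockdown, against 1560, 1440 and 1630 CPM in control. All 3 knockdown libraries lay above all 3 control libraries, with a log2 fold change of 0.21 (edgeR adjusted p = 0.0045). It lost the call when control library 2, its lowest, was left out (edgeR adjusted p = 0.053). HSPA14, which works on the ribosome with the J protein DNAJC2, had 69.1, 68.6 and 72.2 CPM in knockdown and 53.3, 55.4 and 65.7 CPM in control, a log2 fold change of 0.27 (edgeR adjusted p = 0.0025) and of 0.19 with the correction.

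Of the stress-inducible HSP70 genes, HSPA1B passed only in some fits. It had 12.4, 12.1 and 9.57 CPM in knockdown and 9.84, 10.8 and 10.1 CPM in control (log2 fold change 0.15, edgeR adjusted p = 0.22), and stood at 0.26 with the correction (edgeR adjusted p = 0.038) and at 0.26 without knockdown library 3 (edgeR adjusted p = 0.036). HSPA1A, its near-identical neighbour, had at most 1 count in any library. Both lie in a region carried on 4 further sequences of the annotation, so that their counts say little about their levels. HSPA6, a strictly heat-inducible HSP70 whose promoter is shown above, had 1.34, 1.49 and 0.851 CPM in knockdown and 1.44, 1.38 and 1.31 CPM in control, and did not pass (log2 fold change -0.17, 95% interval -0.6 to 0.27).

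HSPA9 (mortalin), the HSP70 of the mitochondrial matrix, pulls imported proteins through the inner membrane. It had 513, 525 and 534 CPM in knockdown, against 388, 397 and 436 CPM in control. These groups lay well apart, and the log2 fold change was 0.36 (SE 0.051, edgeR adjusted p = 7.9e-06), with 0.29 after the correction. The gene lies on chromosome 5 from 138553756 to 138575416 (GRCh38, minus strand), and its transcripts have a GC content of 44.7%. HSPA5 (BiP), the HSP70 of the endoplasmic reticulum, had 630, 669 and 632 CPM in knockdown and 667, 613 and 652 CPM in control, groups that overlap, with a log2 fold change of 0.00 (95% interval -0.11 to 0.1). HSPA13, a second HSP70 of that compartment, had 116, 110 and 116 CPM in knockdown and 98.0, 88.0 and 93.5 CPM in control, and rose with a log2 fold change of 0.29 (SE 0.05, edgeR adjusted p = 8.7e-05), which was 0.12 with the correction (edgeR adjusted p = 0.047). HSPA2, HSPA12A and HSPA12B did not pass.

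Ratios between HSP70 genes were taken within each library. The ratio of HSPA9 to HSPA5 was 0.813, 0.784 and 0.845 in knockdown and 0.582, 0.647 and 0.669 in control. That of HSPA8 to HSPA5 was 2.73, 2.73 and 2.87 in knockdown and 2.34, 2.35 and 2.49 in control. Each pair of groups was fully separated, with a two-sided exact permutation p of 0.1, the smallest that 3 against 3 libraries allow, and 0.125 after adjustment over 5 ratios, so neither passed and none could.

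All 3 HSP110 genes rose, with edgeR adjusted p of 1.5e-06, 3.7e-05 and 0.0077 for HSPH1, HSPA4L and HSPA4. These proteins exchange nucleotide on HSP70 and hold unfolded clients. HSPH1 had 150, 155 and 155 CPM in knockdown, against 117, 105 and 122 CPM in control, and its lowest knockdown library lay above its highest control library. Its log2 fold change was 0.42 (SE 0.053), or 0.27 with the correction. Of the 71 tested genes of the set, HSPH1 alone passed as higher against a null of a 1.2-fold change (edgeR adjusted p = 0.015). Over all tested genes 1.95% did, so the set had no clear excess of higher genes at this threshold. HSPA4L had 43.6, 44.7 and 45.3 CPM in knockdown and 33.3, 35.3 and 36.3 CPM in control, a log2 fold change of 0.35 (SE 0.056) and of 0.20 with the correction. HSPA4 had 236, 234 and 244 CPM in knockdown and 211, 191 and 225 CPM in control, a log2 fold change of 0.19 that fell to 0.07 with the correction and no longer passed (edgeR adjusted p = 0.29). HSPH1 lies on chromosome 13 from 31134973 to 31162388 (GRCh38, minus strand), and its transcripts have a GC content of 39.3%, in the lowest decile of all genes.

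**Figure D3:**
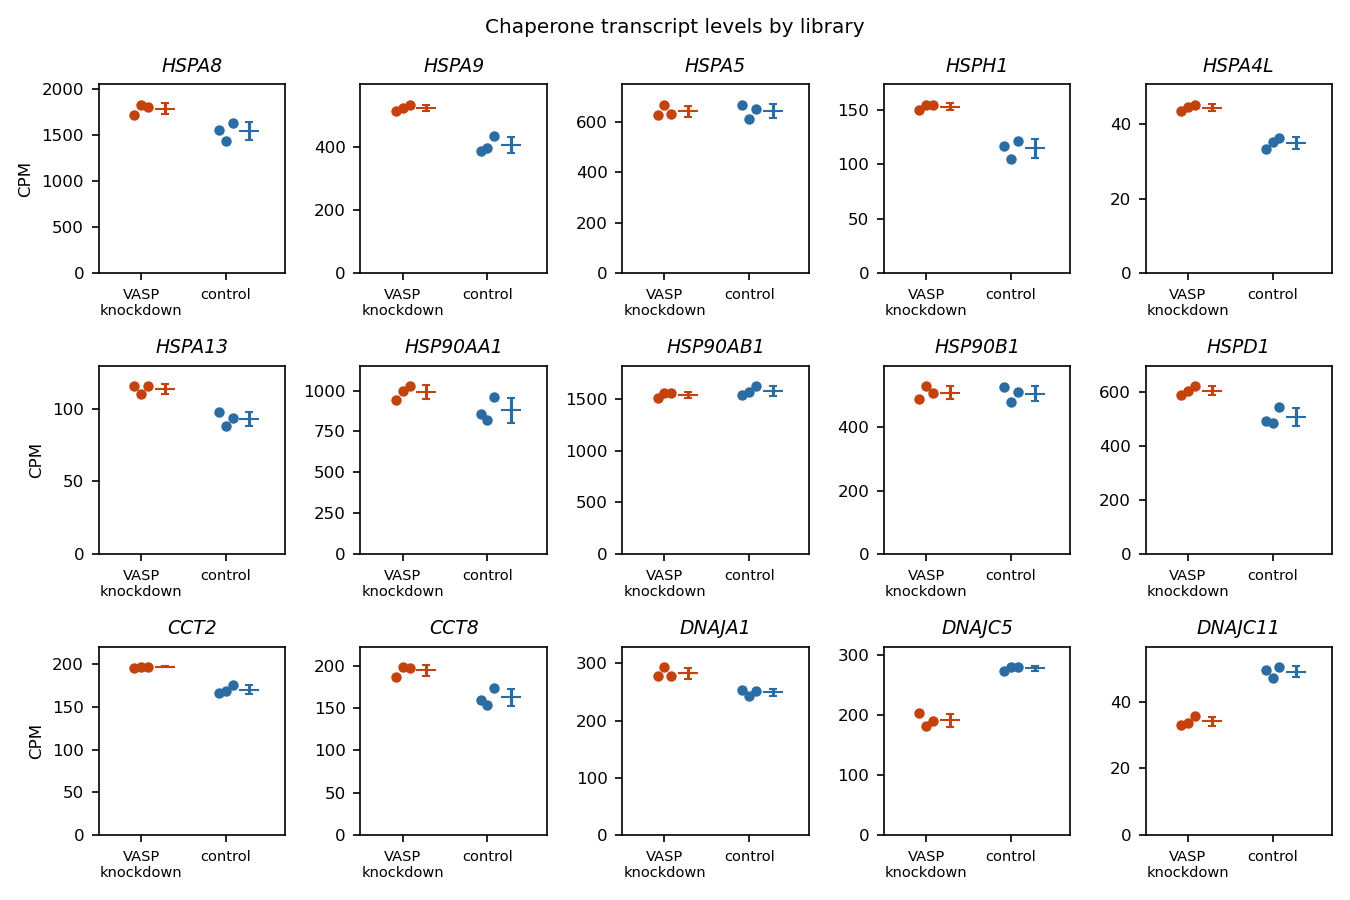
CPM in each library for 15 chaperone genes, with knockdown libraries (orange) left of control libraries (blue) and the mean ± SD beside the points; the vertical axes start at 0 and differ between panels. HSPA9 and HSPH1 stand clearly above control in every knockdown library and DNAJC5 and DNAJC11 clearly below, whereas HSPA5 and HSP90B1 overlap.

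Of the 4 HSP90 genes, HSP90AA1 alone rose. It encodes the stress-inducible cytosolic HSP90, had 943, 997 and 1030 CPM in knockdown, against 854, 819 and 963 CPM in control, and its groups overlapped, since the highest control library exceeded the lowest knockdown library. Its log2 fold change was 0.17 (edgeR adjusted p = 0.022), and 0.11 with the correction (edgeR adjusted p = 0.13), so the call was lost there. HSP90AB1, the constitutive form, had 1510, 1560 and 1560 CPM in knockdown and 1540, 1570 and 1630 CPM in control, a log2 fold change of -0.03 (95% interval -0.14 to 0.07). HSP90B1 (GRP94), of the endoplasmic reticulum, had 489, 530 and 506 CPM in knockdown and 525, 480 and 510 CPM in control (log2 fold change 0.01, interval -0.1 to 0.11). TRAP1, the mitochondrial HSP90, had 57.7, 58.1 and 56.0 CPM in knockdown and 60.6, 61.0 and 62.5 CPM in control (log2 fold change -0.10, edgeR adjusted p = 0.13); 29.5% of its exonic bases overlap other genes. The ratio of HSP90AA1 to HSP90AB1 was 0.623, 0.639 and 0.664 in knockdown and 0.553, 0.523 and 0.59 in control, with no overlap (exact permutation p = 0.1, the smallest possible, and 0.125 adjusted).

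Per kilobase of annotated exon, HSP90AB1 was the highest of the 88 genes, at 518 CPM per kb in knockdown and 530 in control, followed by HSPA8 at 369 in knockdown and 318 in control and HSP90AA1 at 189 in knockdown and 167 in control. HSPA5 came next with 164 CPM per kb in both groups. The most abundant chaperone transcripts were thus of both kinds, those that passed and those that did not.

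Of the mitochondrial chaperonin genes, HSPD1 rose and HSPE1 did not pass. HSPD1 encodes HSP60, the barrel that folds imported matrix proteins, and had 589, 601 and 622 CPM in knockdown, against 492, 484 and 545 CPM in control. Its groups did not overlap, and the log2 fold change was 0.25 (edgeR adjusted p = 0.00055) and 0.19 with the correction. HSPE1 encodes HSP10, the lid of that barrel, and shares a divergent promoter region with HSPD1. It had 29.2, 27.8 and 27.5 CPM in knockdown and 26.9, 27.8 and 25.8 CPM in control, a log2 fold change of 0.07 (edgeR adjusted p = 0.38), with overlapping groups. Of the exonic bases of HSPE1, 17.9% overlap HSPD1 and a readthrough gene, and reads in such places were not counted. The ratio of HSPD1 to HSPE1, which sets the 2 genes against each other, did not pass (exact permutation p = 0.2, with 0.1 the smallest possible), so a difference between them was not shown.

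In the TRiC chaperonin, 3 of the 7 subunit genes in the set (42.9%) rose and none fell, against 18.9% and 18.3% of all tested genes. CCT8 had 187, 199 and 198 CPM in knockdown, against 160, 154 and 174 CPM in control, a log2 fold change of 0.26 (SE 0.051, edgeR adjusted p = 0.00032). CCT2 had 196, 197 and 197 CPM in knockdown and 166, 168 and 176 CPM in control, a log2 fold change of 0.21 (edgeR adjusted p = 0.00083). TCP1 had 208, 207 and 211 CPM in knockdown and 184, 180 and 190 CPM in control, a log2 fold change of 0.17 (edgeR adjusted p = 0.0045). In all 3 the groups were separated. With the correction the same 3 passed at lower values, with log2 fold changes of 0.14 for CCT8, 0.11 for CCT2 and 0.11 for TCP1. In that fit 13.2% of all genes were higher and 14.4% lower.

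CCT5 lay just outside the threshold, with 375, 385 and 397 CPM in knockdown and 336, 336 and 383 CPM in control (log2 fold change 0.13, edgeR adjusted p = 0.051). CCT3, CCT4 and CCT7 had log2 fold changes of 0.08, 0.08 and 0.04 and did not pass. Per kilobase of exon, the 7 transcripts ranged from 42.7 (TCP1) to 115 (CCT3) CPM per kb in knockdown and from 37.9 to 108 in control, for the same pair. Summed over the 7, TRiC stood at 1910, 1930 and 1960 CPM in knockdown, against 1730, 1730 and 1870 CPM in control, without overlap. CCT6A, the remaining standard subunit, falls outside the symbol rule and rose to 357 ± 9.46 CPM in knockdown, against 295 ± 17.7 CPM in control (SD, n = 3 each; log2 fold change 0.28, edgeR adjusted p = 0.00014), and had a log2 fold change of 0.16 with the correction.

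Small heat shock proteins hold unfolded proteins without ATP. Only 2 of the 8 were tested. HSPB1 (HSP27), which also binds actin, had 128, 150 and 121 CPM in knockdown and 150, 152 and 128 CPM in control, with overlap (log2 fold change -0.11, edgeR adjusted p = 0.35). HSPB11, a subunit of intraflagellar transport despite its symbol, rose, with 23.7, 24.8 and 25 CPM in knockdown and 21.1, 22.2 and 21.2 CPM in control (log2 fold change 0.19, edgeR adjusted p = 0.022), and lost the call with the correction (0.05, edgeR adjusted p = 0.58).

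Of the 43 J protein genes, 36 were tested. Of these, 16 (44.4%) rose and 4 (11.1%) fell, the only genes of the whole set to fall. Over all tested genes 18.9% rose and 18.3% fell. With the correction 7 (19.4%) rose and 7 (19.4%) fell, against 13.2% and 14.4% of all genes. By class, all 3 tested A genes rose, and 3 of 9 B genes (33.3%) rose and 1 (11.1%) fell. Among 24 C genes, 10 (41.7%) rose and 3 (12.5%) fell.

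Class A and B proteins assist HSP70 directly. DNAJA1, whose promoter is shown above, had 277, 294 and 277 CPM in knockdown, against 254, 242 and 252 CPM in control (log2 fold change 0.18, edgeR adjusted p = 0.0042), and DNAJA2 had a log2 fold change of 0.20 (edgeR adjusted p = 0.0016). Neither passed with the correction. DNAJA4 had 0.456, 0.575 and 0.579 CPM in knockdown and 0.274, 0.31 and 0.173 CPM in control, near the detection floor, and its log2 fold change of 1.07 (SE 0.35, edgeR adjusted p = 0.017) is the widest estimate among the called genes. DNAJB6, which keeps polyglutamine proteins soluble, had 243, 249 and 242 CPM in knockdown and 219 CPM in each control library, a log2 fold change of 0.16 (edgeR adjusted p = 0.0076) that stood at 0.18 with the correction. DNAJB14, in the membrane of the endoplasmic reticulum, and DNAJB5 rose with log2 fold changes of 0.28 and 0.23 (edgeR adjusted p = 0.00036 and 0.023). With the correction DNAJB14 stood at 0.13 and lost the call (edgeR adjusted p = 0.062), and DNAJB5 stood at 0.29. DNAJB1 (HSP40), the classical heat-inducible partner of HSP70, did not rise. It had 214, 221 and 208 CPM in knockdown and 234, 232 and 228 CPM in control. It was lower in every knockdown library but not past the threshold (log2 fold change -0.11, edgeR adjusted p = 0.067), and stood at -0.05 with the correction (edgeR adjusted p = 0.35). DNAJB1 passed as lower with upper-quartile scaling (-0.13, edgeR adjusted p = 0.024) and with a filter of 1 CPM in 3 libraries (-0.11, edgeR adjusted p = 0.049). DNAJB2, which sends clients to the proteasome, fell, with 23.8, 24.6 and 20.9 CPM in knockdown and 28.9, 28.7 and 26.4 CPM in control (log2 fold change -0.28, edgeR adjusted p = 0.0026, and -0.17 with the correction). DNAJB4, DNAJB9 and DNAJB11 had log2 fold changes of 0.10, 0.19 and 0.11 and did not pass.

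Class C proteins share the J domain and otherwise differ. DNAJC5 (cysteine string protein), which chaperones proteins of vesicle exocytosis, had the smallest p-value of the 71. It had 203, 182 and 190 CPM in knockdown, against 274, 281 and 281 CPM in control, far apart, and fell by 0.54 on the log2 scale (SE 0.049, edgeR adjusted p = 1.3e-08). It lies on chromosome 20 from 63895126 to 63936031 (GRCh38, plus strand), and no other gene overlaps its exons. DNAJC11, a protein bound to the mitochondrial cristae-organizing complex, had 33.0, 33.7 and 35.8 CPM in knockdown and 49.5, 47.2 and 50.6 CPM in control, and fell by 0.52 (SE 0.057, edgeR adjusted p = 2e-07). Of its exonic bases, 27.9% overlap THAP3. Both, and no other of the 71, passed as lower against a null of a 1.2-fold change (edgeR adjusted p = 6.3e-05 for DNAJC5 and 0.00062 for DNAJC11). Over all tested genes 3.78% did (5.73% in either direction). Both kept a value near the uncorrected one with the correction, at -0.46 and -0.48. DNAJC4 had 11, 11.4 and 10.8 CPM in knockdown and 15.3, 15.7 and 12.9 CPM in control, and fell by 0.40 (SE 0.085, edgeR adjusted p = 0.00065), with -0.25 after the correction.

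The 10 class C genes that rose had log2 fold changes between 0.15 and 0.43. DNAJC2, a J protein of the ribosome, had 15.0, 17.1 and 17.3 CPM in knockdown and 11.3, 12.2 and 13.3 CPM in control, a log2 fold change of 0.43 (SE 0.083, edgeR adjusted p = 0.00028), which was 0.28 with the correction. DNAJC6 (auxilin), which strips clathrin from vesicles, had 28.5, 28.4 and 31.4 CPM in knockdown and 22.8, 24.0 and 23.7 CPM in control, a log2 fold change of 0.32 (SE 0.064, edgeR adjusted p = 0.0003). DNAJC7, a co-chaperone of both HSP70 and HSP90, had 100, 108 and 110 CPM in knockdown and 82.7, 85.5 and 92.1 CPM in control, a log2 fold change of 0.29 (SE 0.053, edgeR adjusted p = 0.00014). These 3 and DNAJC9, a histone chaperone, also passed with the correction. DNAJC24, DNAJC19, DNAJC15, DNAJC13, DNAJC8 and DNAJC21, with log2 fold changes between 0.15 and 0.29, did not pass with it. The 11 class C genes that did not pass uncorrected had log2 fold changes between -0.21 and 0.06, and of these DNAJC3 and DNAJC10, chaperones of the endoplasmic reticulum, and DNAJC27 stood at -0.17, -0.17 and -0.29 with the correction. Of the exonic bases of DNAJC9, 48.0% overlap its antisense gene or a neighbour; the counting command shows no strand option, so reads there cannot be assigned by strand.

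Most BAG proteins bind HSP70 through a shared domain. BAG2 had 59.0, 60.7 and 60.5 CPM in knockdown and 50.9, 50.3 and 53.8 CPM in control and rose (log2 fold change 0.22, edgeR adjusted p = 0.002), with 44.2% of its exonic bases overlapping neighbours, and did not pass with the correction (0.05). BAG4 had 31.4, 31.9 and 31.5 CPM in knockdown and 26.1, 27.3 and 26.2 CPM in control (log2 fold change 0.25, edgeR adjusted p = 0.0017), and passed in both fits. BAG3, the heat-inducible member that directs clients to autophagy, had 122, 131 and 124 CPM in knockdown and 129, 135 and 125 CPM in control, with overlap (log2 fold change -0.05, edgeR adjusted p = 0.46). BAG1 and BAG5 had log2 fold changes of -0.07 and 0.03 and did not pass. BAG6 had under 1 CPM in every library and is also carried on further sequences.

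Sorted by the compartment of the protein, 14 of 26 tested cytosolic genes rose and 1 fell, 4 of 8 mitochondrial genes rose and 1 fell, and 2 of 12 genes of the endoplasmic reticulum rose and none fell. Their median log2 fold change was 0.17 in the cytosol, 0.16 in mitochondria and 0.02 in the endoplasmic reticulum. With the correction, 11 cytosolic genes rose and 1 fell, 2 mitochondrial genes rose and 1 fell, and in the endoplasmic reticulum 1 rose and 2 fell. Of 24 tested genes with other or several sites, 11 rose and 2 fell, with a median of 0.12, and 5 rose and 3 fell with the correction. For all genes the shares were 18.9% higher and 18.3% lower, or 13.2% and 14.4% with the correction, and the 16.7% higher in the endoplasmic reticulum is near the first. The difference between compartments was not tested. Of the genes whose promoters are shown, HSPA8, DNAJA1 and DNAJB6 rose and HSPA6 did not pass, and both genes with the endoplasmic reticulum stress element, HSPA5 and HSP90B1, did not pass. The 3-unit heat shock word was in 3 of the 28 higher genes with a promoter, 0 of the 4 lower ones, 1 of the 32 that did not pass and 0 of the 13 not tested. The looser 2-unit word was in 7, 0, 4 and 6 of them in the same order. These are counts with no test.

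**Figure D4:**
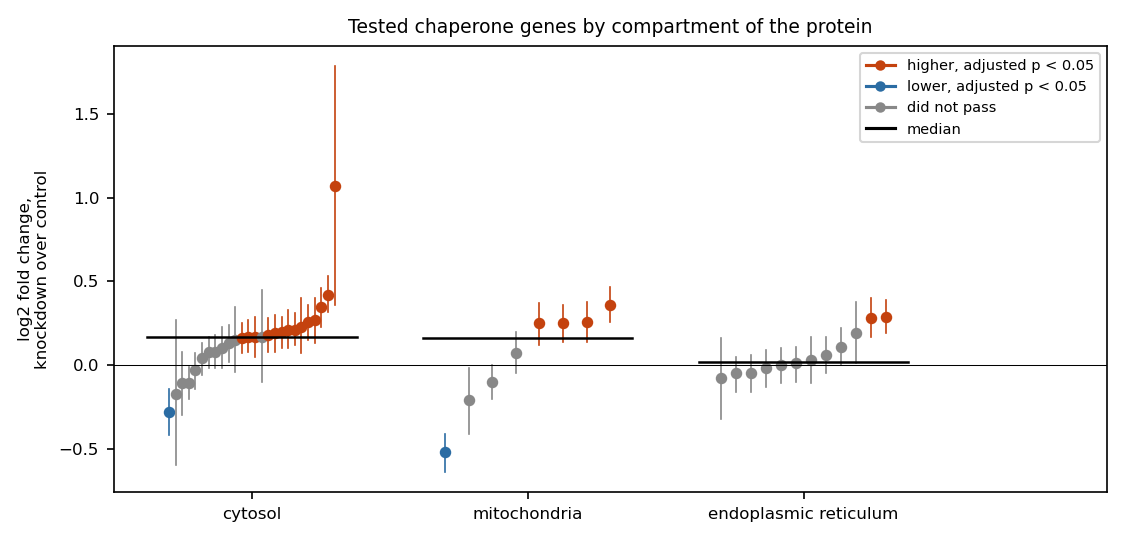
Log2 fold change, knockdown over control, of the tested chaperone genes by the compartment of their protein, each with its 95% interval, in rising order within a compartment; orange passed as higher, blue as lower, grey did not pass, and the black bar is the median. The medians are 0.17 for the cytosol, 0.16 for mitochondria and 0.02 for the endoplasmic reticulum.

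Genes that work around the chaperones were read from lists chosen for function. Among 22 tested co-chaperones of HSP70 and HSP90, 8 (36.4%) rose and 6 (27.3%) fell, against 18.9% and 18.3% of all tested genes. With the correction 6 rose and 2 fell, against 13.2% and 14.4% of all. GRPEL2, a nucleotide exchange factor of mitochondrial HSP70, rose to 33.3 ± 1.57 CPM in knockdown, against 26.0 ± 2.18 CPM in control (log2 fold change 0.36, edgeR adjusted p = 0.00017, and 0.22 with the correction), and CDC37L1 rose with a log2 fold change of 0.57 (edgeR adjusted p = 0.00028). STUB1 (CHIP), the ubiquitin ligase that binds HSP70 and HSP90, fell to 22.4 ± 2.45 CPM in knockdown, against 29.1 ± 1.76 CPM in control (SD, n = 3 each; log2 fold change -0.38, edgeR adjusted p = 0.0003), and lost the call with the correction (-0.17, edgeR adjusted p = 0.072).

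The partners of TRiC include CCT6A and the prefoldin subunits that deliver actin and tubulin. Of 12 tested, 6 (50%) rose and none fell, with and without the correction. Over all genes 18.9% rose and 18.3% fell, or 13.2% and 14.4% with the correction. VBP1, a prefoldin subunit, and PDCL3, a TRiC co-factor, had log2 fold changes of 0.32 and 0.39 (edgeR adjusted p = 7.4e-05 and 6.4e-05), and of 0.17 and 0.39 with the correction. Among genes with a J domain under other symbols, SEC63, of the protein translocation channel of the endoplasmic reticulum, rose (log2 fold change 0.23, edgeR adjusted p = 0.0011) and GAK, a partner of clathrin uncoating, fell (-0.19, edgeR adjusted p = 0.0099), and neither passed with the correction (0.08 and -0.04). Of 12 further genes listed as heat-inducible, 3 (25%) rose and 2 (16.7%) fell, shares near those of all genes. Whether each of the 12, HSBP1 among them, is induced by heat was not tested here. With the correction 6 (50%) rose and 1 (8.33%) fell, against 13.2% and 14.4% of all genes in that fit. Among the 12, CACYBP rose (0.28, and 0.18 with the correction), and CLU, a secreted chaperone, fell (-0.49, and -0.45 with it). HSBP1 rose (0.17) but lost the call with the correction (0.12, edgeR adjusted p = 0.092). Of 9 tested mitochondrial proteases and import motor genes, 1 (11.1%) rose and 3 (33.3%) fell, against 18.9% and 18.3% of all tested genes. YME1L1 (0.16) rose, and SPG7 (-0.24), AFG3L2 (-0.21) and LONP1 (-0.20) fell. With the correction 1 rose and 1 fell (11.1% each), against 13.2% and 14.4% of all genes. YME1L1 (0.04), SPG7 (-0.09) and LONP1 (-0.04) lost the call there and AFG3L2 (-0.26) kept it. TIMM44 (0.2) passed as higher only with the correction.

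Of the 17 genes that were not tested, 6 had no count in any library and 11 had some, at most 16 in a library. HSF1 and DNAJA3 are among the 6, and both are carried on a further sequence of the annotation; 7 of the 88 genes are. HSPB8, a small heat shock protein that works with BAG3, had 8, 16 and 9 counts in knockdown, against 2, 2 and 5 counts in control. Exons of 45 of the 88 genes overlap those of another gene.

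Control library 3 was the highest of the control libraries in 22 of the 32 higher genes, against 5 each for control libraries 1 and 2. The same count was not made over all tested genes, so it cannot be told whether this is particular to these genes. Without control library 3, 32 genes were higher and 6 lower. These were not all the same genes as in the full fit, since DNAJA4 lost the call and CCT5 gained it. DNAJC30 and HSPB1 passed as lower only with a library left out.

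Leaving out 1 library ended some calls, given here with their edgeR adjusted p. HSP90AA1 lost it without control library 1 (0.079), control library 2 (0.17) or knockdown library 3 (0.098), and HSPA4 without control library 2 (0.081). DNAJA4 lost it without knockdown library 2 (0.058), knockdown library 3 (0.056) or control library 3 (0.078), and DNAJB5 without knockdown library 2 (0.16) or control library 2 (0.087). DNAJC21 lost it without any single library other than knockdown library 1 and control library 3 (0.065 to 0.19), DNAJC8 without knockdown library 3 (0.05) or control library 2 (0.067), and HSPB11 without knockdown library 2 (0.052), knockdown library 3 (0.073) or control library 1 (0.058). In the other direction, CCT5 passed as higher without control library 3 (0.0024) and DNAJB9 without control library 1 (0.015). HSPB1 passed as lower without knockdown library 2 (0.036) or control library 3 (0.043), and DNAJC30 without control library 3 (0.017).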

How the data were processed

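The authors deposited a table of raw counts per gene for 6 libraries. Per the file headers, featureCounts 1.6.4 counted paired fragments in exons by gene name of GENCODE 32, patches and alternate sequences included, with no strand option, so that fragments aligning to several places or genes were not counted. Per the submitters' processing notes, Trim Galore 0.6.4 and STAR 2.7.1a were used on hg38. The names of the control columns all extend the title of 1 control sample, so they could be tied to the control group but not to single samples.

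The counts as deposited were tested here with edgeR 4.0.16 in R 4.3.3 (filterByExpr, TMM scaling, quasi-likelihood test, two-sided, knockdown against control, n = 3 each), with Benjamini-Hochberg adjustment over 16633 genes at a threshold of 0.05. CPM values use TMM library sizes. The genes described, the gene lists and their classes were chosen with earlier results of these data known, so their counts are not independent evidence. Named genes were the heat shock factors, the main genes of each family and every other gene of the set past the threshold, with full statistics for those with the smallest p; from each surrounding list, up to 3 past the threshold. HSPA2, HSPA6, HSPA12A, HSPA12B, DNAJC3, DNAJC10, DNAJC27, DNAJC30, YME1L1 and TIMM44 were named after their values were seen. GC content came from GENCODE 29 transcripts, available for 98.4% of tested genes, and was corrected with length by a natural spline (5 degrees of freedom) in each library. Replicates differed beyond sampling noise. Alternatives were RLE and upper-quartile scaling, no low-count filter, a filter of 1 CPM in 3 libraries, DESeq2 1.42.0, limma 3.58.1 (voom), a null of a 1.2-fold change and leaving out each library.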

Additional observations from a re-analysis of the deposited data

How the results depend on the processing

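The count of 32 higher genes fell to 19 with the GC and length correction and to 1 against a null of a 1.2-fold change, and that of 4 lower genes became 7 and 2. The second setting removes small changes by construction, and the median fold of the higher genes was 1.19; the cause of the first was not tested beyond the correction itself. In the other fits the counts lay between 30 and 35 higher and 4 and 5 lower; leaving out 1 library in turn gave 26 to 32 higher and 4 to 6 lower. Of the 36 called genes, 28 kept the call without each library and 8 lost it at least once (DNAJA4, DNAJB5, DNAJC8, DNAJC21, HSP90AA1, HSPA4, HSPA8 and HSPB11). The VASP log2 fold change stayed between -3.57 and -3.73. No named gene reversed direction past the threshold, and the median over all genes stayed between -0.032 and 0.002 under every scaling. Over all genes, 6187 passed, 4508 with the GC and length correction and 953 against the 1.2-fold null. CCT5 passed with RLE scaling (edgeR adjusted p = 0.049), limma-voom and no low-count filter. DNAJB9 passed as higher with no low-count filter (edgeR adjusted p = 0.033). DNAJB1 passed as lower with upper-quartile scaling (edgeR adjusted p = 0.024) and with the filter of 1 CPM in 3 libraries (edgeR adjusted p = 0.049). No paired analysis was possible because the numbers in the control column names could not be matched to single control samples. Low counts limit genes under about 1 CPM such as DNAJA4; for BAG6, also carried on further sequences, the reason for the low count was not tested.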

Other observations

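HSPB8 passed only when no filter on low counts was applied (log2 fold change 1.81, edgeR adjusted p = 0.0044), with 8, 16 and 9 counts in knockdown and 2, 2 and 5 counts in control.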
